A study of Ceratotherium simum simum with 6 samples.

Results

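The 8 genes described here store iron, carry it into and out of the cell, release it from haem and sense its level. They are FRIH and FRIL (ferritin heavy and light chain), TFR1 (transferrin receptor), NRAM2 (the iron importer DMT1), S40A1 (the iron exporter ferroportin), HMOX1 (haem oxygenase), NCOA4 (the cargo receptor that takes ferritin to the lysosome) and IREB2 (iron regulatory protein IRP2). The files use UniProt entry names, and the loci were found by these names in the deposited table of transcript positions. Where a name stood on several loci, the locus with the most counts was taken, which gave 8 of the 25906 loci in all.

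The RNA came from granulosa cells, the somatic cells around the oocyte, of 2 wild-type southern white rhinoceroses. Both animals carry the same labels otherwise, in vivo cells taken before in vitro maturation (IVM), and each has 3 RNA-seq libraries. The only comparison the labels allow is rhino 2 against rhino 1, 1 animal against 1 animal. The source of the 3 libraries within an animal (separate follicles, collections or aliquots) is not stated, so every p below measures only how these libraries vary, and that variation may be technical. With 1 animal in each group, a difference between the groups is a difference between these animals.

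Ferritin is a hollow protein shell in which the heavy chain oxidises iron and the light chain helps to mineralise it. Transferrin-bound iron enters through the transferrin receptor and leaves the endosome through DMT1, and ferroportin is the only known iron exporter of mammalian cells. When iron is scarce, the iron regulatory proteins bind stem-loops (iron-responsive elements) in the ferritin and ferroportin messages, which lowers their translation, and in the transferrin receptor message, which stabilises it. RNA levels therefore show only part of this control.

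Library totals ran from 672410 to 13288936 counts. Levels are given as CPM, counts scaled so that each library sums to 1e+06, and 1 count was worth between 0.0753 and 1.49 CPM. In rhino 1 replicate 1, named genes held 94.5% of the counts. In each of the other 5 libraries, unnamed models on the opposite strand of named genes held between 86.1% and 90.2%, so the values below are sums over both strands. All 8 genes had such an opposite-strand model. All 10 granulosa markers listed, led by INHA, CXA1 and FST, had counts in every library, and they summed to 15534 to 24279 CPM in rhino 1 and 12155 to 17156 CPM in rhino 2.

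FRIH stood on scaffold 32 (23013125 to 23015420, minus strand) and FRIL on scaffold 33 (12998402 to 12999604, minus strand), in the coordinates of the deposited table, whose genome build is not given in the sources used here. Each named model had 4 exons, with 549 exonic bases for FRIH and 528 for FRIL. The opposite-strand models had the same 3 introns at each locus but longer outer exons, and covered 893 and 886 bases. At FRIH the opposite-strand model reached 179 bases beyond the 5' end of the named model and 165 bases beyond its 3' end, and at FRIL 192 and 166 bases. The deposited table marks no untranslated regions. In rhino 1 replicate 1 the counts of FRIL lay on the named model alone, whereas 10.6% of those of FRIH (95% Wilson interval 10.3 to 10.9) lay on the opposite-strand model. In the other 5 libraries all counts of both genes lay on the opposite-strand models.

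**Figure D1:**
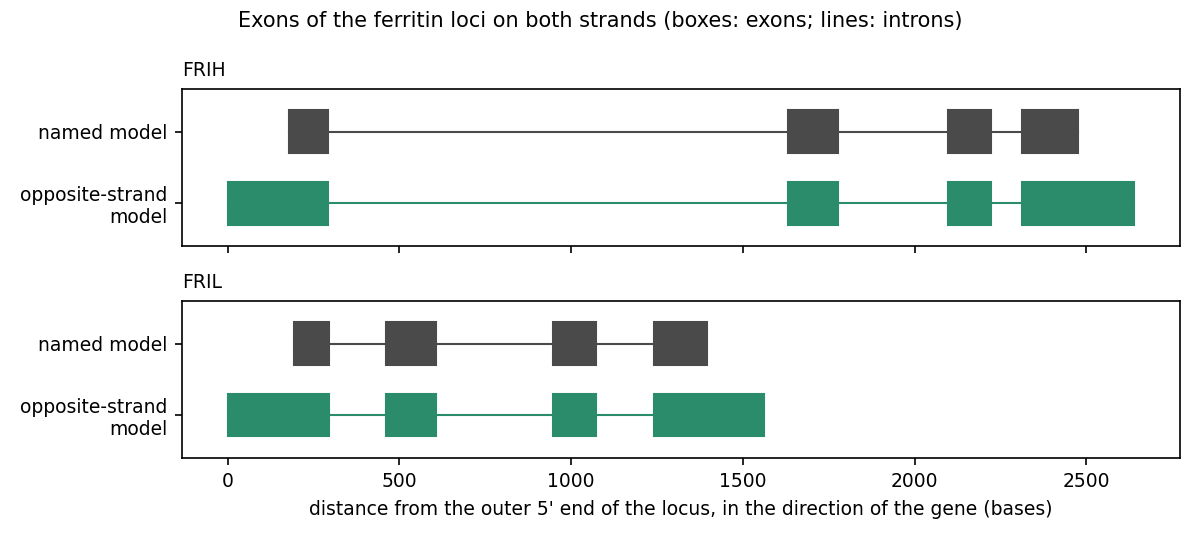
Exons (boxes) and introns (lines) of FRIH and FRIL in the named model and in the opposite-strand model, against the distance in bases from the outer 5' end of the locus. The introns coincide, and the outer exons of the opposite-strand models are longer, so that they hold 893 and 886 exonic bases against 549 and 528.

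Ferritin heavy chain RNA was abundant and did not pass the test between the animals. For FRIH, replicates 1, 2 and 3 of rhino 1 stood at 2548, 2777 and 2713 CPM, against 1981, 1647 and 2904 CPM in those of rhino 2; values of the other genes follow in the same replicate order. Its highest library was only 1.76 times its lowest, and the highest belonged to rhino 2, so the animals overlapped. The log2 fold change, rhino 2 over rhino 1, was -0.20 (SE 0.25), with adjusted p = 0.919 by edgeR's quasi-likelihood test with Benjamini-Hochberg adjustment. That test was run over all 8532 loci that passed its filter on low counts, and it supplies all adjusted p-values for which no other tool is named.

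FRIL varied more, with 273, 547 and 231 CPM for rhino 1 against 245, 108 and 350 for rhino 2. Replicate 2 of rhino 1 was the highest and replicate 2 of rhino 2 the lowest of all 6 libraries, 5.07-fold apart, and the animals overlapped. Its log2 fold change of -0.45 had an SE of 0.48 (adjusted p = 0.874). Those are the smallest libraries of each animal, and without both the log2 fold change turned to 0.30. The library with the highest FRIL also held the most RNA of the collagen gene CO1A1, a stromal marker, at 2870 CPM against 4.67 and 353 CPM in the other libraries of rhino 1 and 0 in rhino 2. The part of stromal cells in the FRIL value was not tested. In bulk RNA, fewer cells of a type and less RNA per cell cannot be told apart.

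Together the ferritin chains held 0.282%, 0.332% and 0.294% of all counts in rhino 1 and 0.223%, 0.175% and 0.325% in rhino 2. FRIH supplied most of these counts. Its share of ferritin counts was 90.3% (95% Wilson interval 90.0 to 90.6), 83.5% (81.9 to 85.0) and 92.1% (91.3 to 92.9) in rhino 1. In rhino 2 it was 89.0% (87.9 to 90.0), 93.8% (92.4 to 95.1) and 89.3% (88.2 to 90.2). The intervals cover counting error only, and the spread within each animal was wider than that. Per kilobase of the model that held the counts, heavy chain RNA exceeded light chain RNA in all 6 libraries, by 8.60, 5.03 and 11.6 times in rhino 1 and by 8.03, 15.1 and 8.24 times in rhino 2, with overlap between the animals.

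Both ferritin names recurred in the table, 8 times for FRIH and 7 times for FRIL. All 7 further FRIH loci and all 6 further FRIL loci had a single exon. The further FRIH loci, the highest on scaffold X (28797014 to 28797568, plus strand), held 13 counts in rhino 1 replicate 1, against 33859 at the 4-exon locus. They held 0 counts in the other 5 libraries. None of them has an opposite-strand model, so these zeros say nothing of their RNA there. Of the 8 loci of this name, 5 lay on scaffold X. The further FRIL loci held more, 1513 counts or 29.4% of all FRIL counts in rhino 1 replicate 1 and between 2.56% and 6.12% in the other libraries. Of those 1513, 1104 counts (83.1 CPM) lay on a single-exon locus of 528 bases on scaffold Y_89 (60029 to 60556, plus strand), as the second most abundant locus of this name. That locus has no opposite-strand model, so its 0 counts in the other 5 libraries say nothing of its RNA there. Reads can be split between near-identical copies, so the FRIL count of that library is uncertain. Donors of granulosa cells are female and carry no Y chromosome. Whether scaffold Y_89 belongs to that chromosome, and which FRIL copy gave the 1104 counts, was not tested. Summed over all 7 loci, FRIL came to 387, 583 and 243 CPM for rhino 1 against 257, 111 and 371 for rhino 2, with the same libraries highest and lowest. Only 2 of the 7 FRIL loci have an opposite-strand model. The sum and the share of further loci in rhino 1 replicate 1 are therefore not like for like with those of the other 5 libraries.

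**Figure D2:**
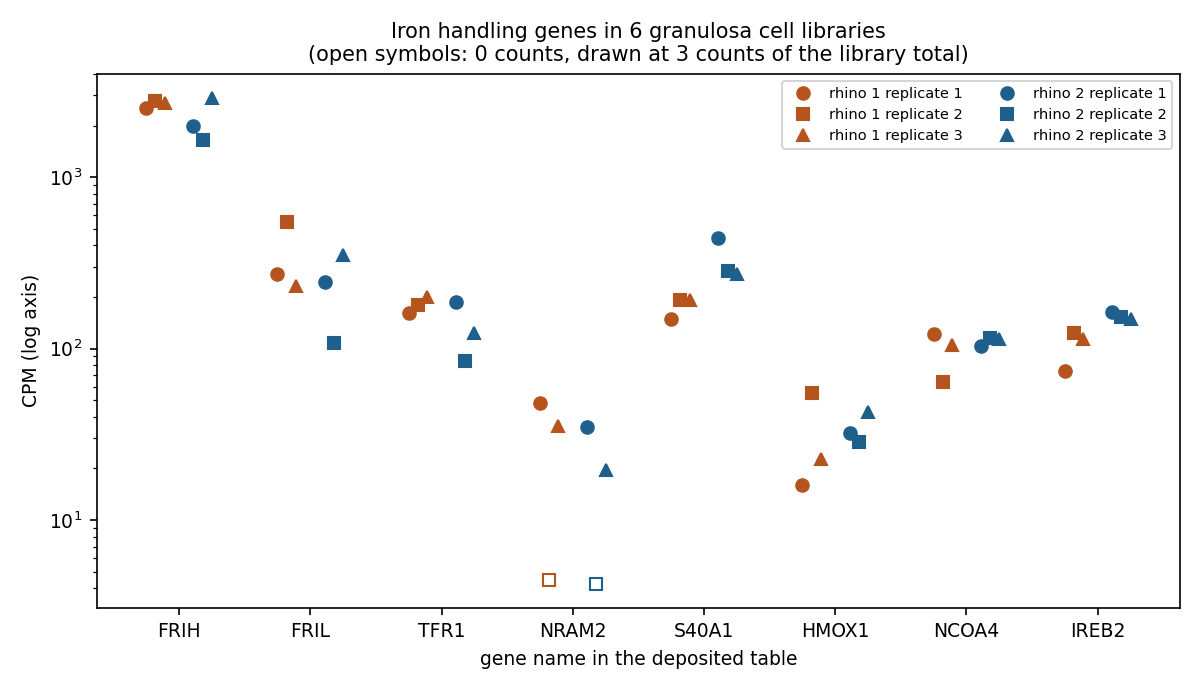
CPM on a log axis of the 8 genes in each library, with a colour for each animal and a symbol for each replicate. FRIH lies between 1647 and 2904 CPM, S40A1 and IREB2 show no overlap between the animals, and NRAM2 has 0 counts in replicate 2 of each animal (open symbols, drawn at 3 counts of the library total).

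Neither importer passed the test. TFR1, on scaffold 15 (36887683 to 36929228, plus strand), stood at 161, 180 and 199 CPM for rhino 1 against 188, 85.3 and 123 for rhino 2. Replicates 2 and 3 of rhino 2 were the lowest and its replicate 1 lay within the range of rhino 1. Its log2 fold change of -0.34 had an SE of 0.30 (adjusted p = 0.819). NRAM2, on scaffold 17 (18179485 to 18197589, plus strand), stood at 48.5, 0 and 35.2 CPM for rhino 1 against 34.8, 0 and 19.5 for rhino 2. Its log2 fold change of -0.57 had an SE of 1.63 (adjusted p = 0.970), and it was 0.10 without rhino 1 replicate 1 and -1.95 by limma-voom (adjusted p = 0.543).

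The 0 counts of NRAM2 fell in the smallest library of each animal, where 3 counts are worth 4.46 and 4.26 CPM. At the mean of the libraries with counts, 34.5 CPM, they would have held about 23.2 and 24.3 counts. Such zeros were common in these libraries. Of the loci modelled on both strands and predicted at 20 to 30 counts from the other 4 libraries, 24.7% were at 0 in rhino 1 replicate 2 and 14.8% in rhino 2 replicate 2. A 0 there is no measure of absence.

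The exporter gene S40A1 had higher values in rhino 2, but the difference did not pass the threshold of 0.05 by edgeR. S40A1 lies on scaffold 9 (17115886 to 17136097, plus strand) and stood at 150, 192 and 192 CPM for rhino 1 against 443, 286 and 273 for rhino 2. All libraries of rhino 2 stood above all of rhino 1, as at 10.4% of the tested loci, and replicate 1 of rhino 2 stood well above the rest. The log2 fold change was 1.01 (SE 0.24, adjusted p = 0.126 by edgeR's quasi-likelihood test). DESeq2 gave adjusted p = 0.0035 and limma-voom adjusted p = 0.029, and these tools called 7.34% and 8.93% of the tested loci. The endothelial markers moved the same way, which was almost wholly TIE2, the gene TEK of the angiopoietin receptor. TIE2 stood at 99.6, 78.8 and 57.3 CPM for rhino 1 against 165, 257 and 195 for rhino 2, without overlap (log2 fold change 1.47, SE 0.30, adjusted p = 0.089). Of the other 4 endothelial markers, CADH5 and VGFR2 were at 0 with no opposite-strand model, and PECA1 and VWF had at most 3.94 CPM. Of the 10 granulosa markers, 1 passed the threshold. MIS, the gene AMH of anti-Müllerian hormone, had means of 83.7 ± 6.32 CPM in rhino 1 and 349 ± 74.4 in rhino 2 (SD, n = 3) and was called (log2 fold change 2.16, SE 0.22, adjusted p = 0.019). The aromatase gene CP19A had means of 2413 and 226 CPM (-3.34, adjusted p = 0.054) and the activin subunit gene INHBA 579 and 186 CPM (-1.56, adjusted p = 0.0952), both without overlap. The part of endothelial cells and of these granulosa genes in the S40A1 and IREB2 values was not tested.

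The size of the S40A1 difference depended on how the length of the models was treated. The named model that took the counts of rhino 1 replicate 1 had 1722 exonic bases and the opposite-strand model 3385. Per kilobase of the model that held the counts, S40A1 stood at 87.0, 56.7 and 56.7 CPM per kb in rhino 1 and at 131, 84.4 and 80.5 in rhino 2, so that replicate 1 of rhino 1 lay within the range of rhino 2. With the model length as an offset the log2 fold change was 0.70 (SE 0.26, adjusted p = 0.269), and without rhino 1 replicate 1 it was 0.93 (SE 0.26, adjusted p = 0.184). Within a library, S40A1 exceeded TFR1 per kilobase by 2.35, 1.58 and 1.43 times in rhino 1 and by 3.50, 4.97 and 3.28 times in rhino 2. This export to uptake ratio did not overlap between the animals. It was chosen after its values were seen, among 3 ratios computed per kilobase and a further ratio of CPM, and carries no test. How often ratios of other gene pairs show no overlap was not computed.

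IREB2, the iron sensor gene on scaffold 3 (70568894 to 70614120, minus strand), had the same direction as S40A1. It stood at 74.4, 123 and 115 CPM for rhino 1 against 163.4, 152 and 148 for rhino 2, again with no overlap. The log2 fold change was 0.69 (SE 0.23, adjusted p = 0.261 by edgeR's quasi-likelihood test). Its opposite-strand model had 5741 exonic bases against 2906 in the named model. Per kilobase, the levels were 25.6, 21.5 and 19.9 in rhino 1 and 28.5, 26.5 and 25.8 CPM per kb in rhino 2, still without overlap, as at 9.59% of the tested loci on that scale, but with the nearest libraries almost level. With the length offset the log2 fold change was 0.41 (adjusted p = 0.327). A second IREB2 locus, of 4 exons on the same scaffold (70687163 to 70693659), held no counts on either strand in any library.

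**Figure D3:**
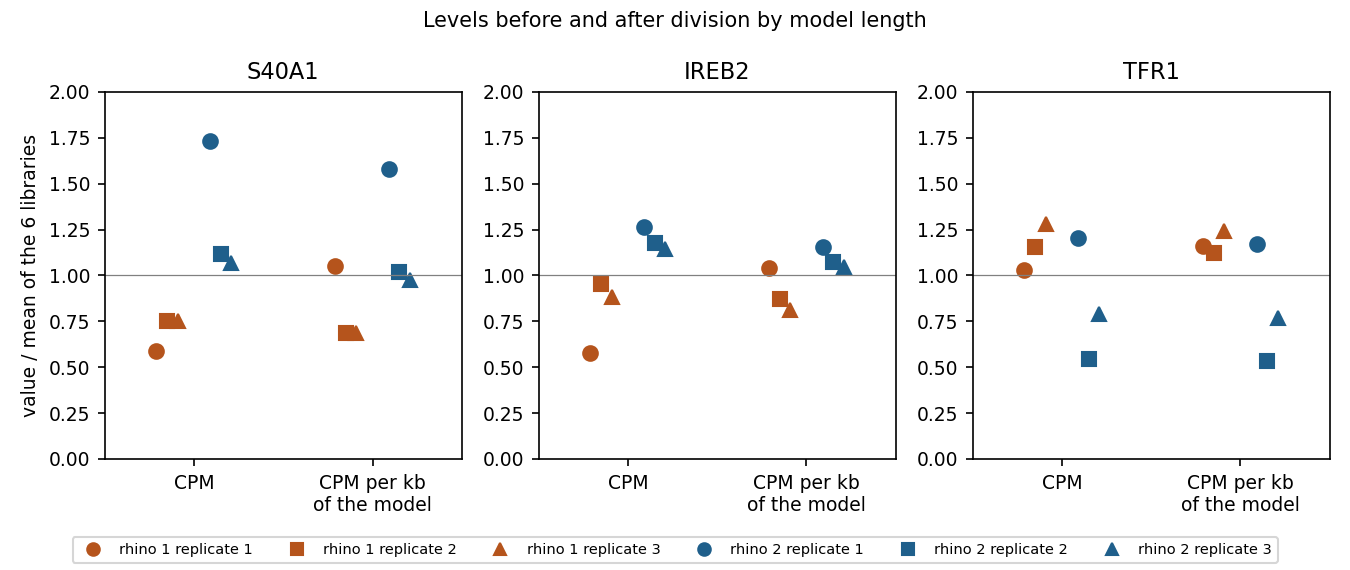
S40A1, IREB2 and TFR1 in each library as CPM and as CPM per kilobase of the model that held the counts, each divided by the mean of the 6 libraries. Division by length lifts rhino 1 replicate 1 relative to the other libraries in S40A1, where it comes to lie within the range of rhino 2, and in IREB2, where it stays just under it.

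HMOX1 opens the haem ring and frees its iron. HMOX1, on scaffold 25 (33347176 to 33353141, plus strand), stood at 16.1, 55.0 and 22.8 CPM for rhino 1 against 32.2, 28.4 and 42.7 for rhino 2. Outside the deepest library these values rest on 20 to 49 counts, and the 95% Wilson interval of the highest, 55.0 CPM, runs from 39.9 to 75.8. The highest library was again replicate 2 of rhino 1, the one with the most CO1A1, whose part was not tested here either, and the animals overlapped. The log2 fold change of 0.29 had an SE of 0.57 (adjusted p = 0.95). Without rhino 1 replicate 1 the value was -0.011, and by limma-voom it was 1.02 (adjusted p = 0.157).

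NCOA4, on scaffold 6 (82035051 to 82057626, plus strand), was the steadiest after FRIH across the libraries, with a 1.91-fold range. It stood at 122, 63.9 and 106 CPM for rhino 1 against 104, 115 and 113 for rhino 2, with replicate 2 of rhino 1 the lowest. The log2 fold change was 0.26 (SE 0.30, adjusted p = 0.896). Its models on both strands had nearly the same length, 3548 and 3477 bases, and with the length offset the log2 fold change was 0.33.

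Levels of different genes were compared per kilobase of the model that held the counts. FRIH came first, with a mean over the animals of 2986 CPM per kb, a range of 1844 to 4452, and ranked 7 of all loci on this scale. FRIL followed at 365 and S40A1 at 82.7, and then came TFR1 at 31.9, NCOA4 at 29.8, HMOX1 at 26.2, IREB2 at 24.6 and NRAM2 at 11.3 CPM per kb. The range of FRIH over the 6 libraries lay apart from that of FRIL, and the range of S40A1 apart from that of TFR1. FRIL and S40A1 overlapped between libraries, but FRIL was above S40A1 within 6 of 6. From TFR1 down to NRAM2, each gene overlapped the next in the order, and TFR1 was above NCOA4 in only 4 of 6 libraries.

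Of the 8 genes, all passed the filter on low counts and 0 passed the threshold by edgeR, where 0.551% of the 8532 tested loci did. At an unadjusted p under 0.05 there were 2, S40A1 and IREB2, where 12.9% of the tested loci fell, and DESeq2 and limma-voom each called 1, S40A1. In direction, 4 of the 8 were positive and 4 negative, and their median log2 fold change was 0.03, beside a median of 0.04 over all tested loci. The animals did not overlap in 2 of the 8, where 24.4% of the tested loci had no overlap in either direction. The ferritin and importer genes had negative values and the exporter, haem oxygenase, NCOA4 and IREB2 positive ones. The signs of HMOX1 and NRAM2 turned without rhino 1 replicate 1, and those of FRIL and NCOA4 without the 2 smallest libraries.

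**Figure D4:**
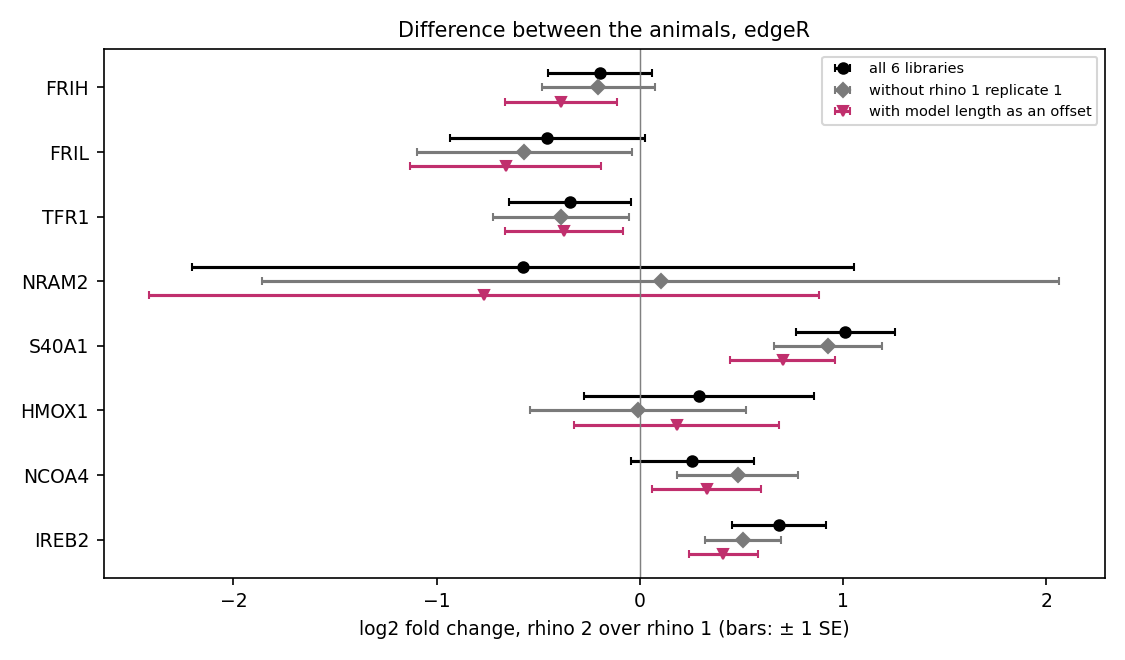
Log2 fold change, rhino 2 over rhino 1, of the 8 genes by edgeR with all 6 libraries, without rhino 1 replicate 1 and with model length as an offset (bars, ± 1 SE). S40A1 and IREB2 lie above 0 in all 3 fits, at 1.01, 0.93 and 0.70 and at 0.69, 0.51 and 0.41.

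Red blood cells carry haem iron, and macrophages are rich in ferritin, ferroportin and haem oxygenase, so their markers are given beside these values. Of 9 erythroid markers, 1 had counts, the beta-globin locus HBB, which also carries the name HBE2. It ran from 1963 to 4335 CPM in rhino 1 and from 387 to 809 in rhino 2, with no overlap (log2 fold change -2.26, SE 0.42, adjusted p = 0.072). Its sign was that of FRIH, FRIL, TFR1 and NRAM2 and opposite to that of S40A1, IREB2, HMOX1 and NCOA4. The signs of FRIL, NRAM2, HMOX1 and NCOA4 turned in other fits. The alpha-globin gene HBA and 7 further markers were at 0 in all libraries, and of these 8 only EPOR had an opposite-strand model. Of 8 macrophage markers matched, 0 had counts in all libraries, the haemoglobin scavenger receptor gene C163A was at 0, and the list summed to at most 86.5 CPM in rhino 1 and 26.9 in rhino 2. All but CD68 lack an opposite-strand model, and CD68 stood at 12.9, 0 and 2.07 CPM for rhino 1 against 13.8, 0 and 26.9 for rhino 2. The next most abundant, PTPRC and ITAM, had 26.6 and 18.3 CPM in rhino 1 replicate 1 and 0 elsewhere. The part of blood and macrophages in the iron gene values was not tested. The theca and stroma markers summed to 184 to 3151 CPM in rhino 1 and 21.3 to 38.0 in rhino 2, with the theca markers CP17A and INSL3 at 0 and no opposite-strand model for either. CO1A1 made up most of the highest sum, with 2870 CPM. LSHR (the gene LHCGR) made up most of the sum in rhino 1 replicate 1 and in rhino 2. It stood at 180, 56.5 and 161 CPM for rhino 1 against 22.3, 21.3 and 38.0 for rhino 2 (log2 fold change -2.21, adjusted p = 0.123). Whether granulosa or other cells held the LSHR RNA was not tested. PGS2 (the gene DCN) had 216 and 49.7 CPM in replicates 2 and 3 of rhino 1 and 0 elsewhere. Of the 6 oocyte markers, only GDF9 had counts, at 3.91 CPM in rhino 1 replicate 1. None of the 6 has an opposite-strand model, so only that library bears on them.

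The wider list of iron and haem genes held 69 others, of which 67 matched a name and 47 were tested. None of the 47 passed the threshold by edgeR, 1 had an unadjusted p under 0.05, and DESeq2 called 1 and limma-voom 0. The log2 fold change was positive in 22 and negative in 25, with a median of -0.07 beside 0.04 over all tested loci. Genes of haem synthesis had 7 of 11 negative values and a median of -0.44. The lowest were PPOX, for protoporphyrinogen oxidase (-2.06, adjusted p = 0.869, with counts in 3 libraries), and HEM4, the gene UROS of uroporphyrinogen synthase. HEM4 stood at 56.9, 68.4 and 41.4 CPM for rhino 1 against 19.7, 12.8 and 5.56 for rhino 2. Its log2 fold change of -2.02 (SE 0.57) had adjusted p = 0.180 by edgeR and adjusted p = 0.014 by DESeq2. Its animals did not overlap, and with HEM3 and TM14C it was among 3 of the 11 with all of rhino 1 above all of rhino 2. Over all 47 genes there were 6 in this order, where 14.0% of the tested loci had it. The haem precursor transporter gene ABCB6 (-0.46) and the coproporphyrinogen oxidase gene HEM6 (0.09) were, with TM14C (-0.44), the 3 of this role with the highest CPM.

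Genes of iron sensing and regulation had 5 of 7 positive values and a median of 0.37, none past the threshold. NF2L2 is the gene NFE2L2 of the factor NRF2, which activates HMOX1 and the ferritin genes. It stood at 154, 579 and 644 CPM for rhino 1 against 765, 591 and 612 for rhino 2 (0.64, adjusted p = 0.741). The low library was rhino 1 replicate 1. KEAP1, which marks NRF2 for destruction, had -0.29 (adjusted p = 0.836), BACH1, a haem-sensing repressor of HMOX1, had 1.22 with counts in only 3 libraries (adjusted p = 0.949), and the neogenin gene NEO1, a partner of hemojuvelin, had 0.48 (adjusted p = 0.701). HERC2, a ubiquitin ligase that acts on NCOA4, had -0.16 (adjusted p = 0.965).

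For iron chaperones and uptake, PCBP1, which delivers iron to ferritin, stood at 309, 422 and 352 CPM for rhino 1 against 294, 259 and 292 for rhino 2, without overlap (-0.25, adjusted p = 0.710). PCBP2 had 637 CPM in rhino 1 replicate 1 and 0 elsewhere, where no opposite-strand model could hold its counts. The zinc and iron importer gene S39AE (ZIP14) ran between 369 and 734 CPM and had -0.25 (adjusted p = 0.919). The endosomal ferrireductase gene STEA3 (STEAP3) had -0.32 (adjusted p = 0.836). Transferrin (TRFE) reached at most 3.28 CPM, and the mitochondrial ferritin gene FTMT and the receptor gene TFR2 were at 0. Of the other export genes, HEPH had 0.903 CPM in rhino 1 replicate 1, and CERU and HEPC were at 0. These 5 genes at or near 0, FTMT, TFR2, HEPH, CERU and HEPC, lack an opposite-strand model, so only rhino 1 replicate 1 bears on them.

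Among genes of haem breakdown and transport, 4 of 7 had positive values, with a median of 0.05. LRP1, a receptor for haem bound to haemopexin, ran between 318 and 662 CPM (0.41, adjusted p = 0.652), and the haem-binding membrane protein genes PGRC1 and PGRC2 had -0.56 (adjusted p = 0.734) and 0.05 (adjusted p = 0.998). The biliverdin reductase gene BIEA (1.00, adjusted p = 0.873) and the haem transporter gene HRG1 (0.97, adjusted p = 0.742) had the largest values. Genes of mitochondrial iron and iron-sulphur clusters had 9 of 18 positive values and a median of 0.05. The highest CPM was that of ADRO, the gene FDXR of the reductase that feeds electrons to steroid-making enzymes through ferredoxin. ADRO stood at 1283, 886 and 1368 CPM for rhino 1 against 614, 956 and 843 for rhino 2 (-0.46, adjusted p = 0.625). MMS19 (-0.48), which delivers clusters to proteins in the cytosol and nucleus, and the cluster scaffold gene ISCU (0.69) followed. The outer membrane cluster protein gene CISD1 (-1.66, adjusted p = 0.787) and the co-chaperone gene HSC20 (1.55, adjusted p = 0.793) had the largest values, each with 0 counts in 1 library.

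**Figure D5:**
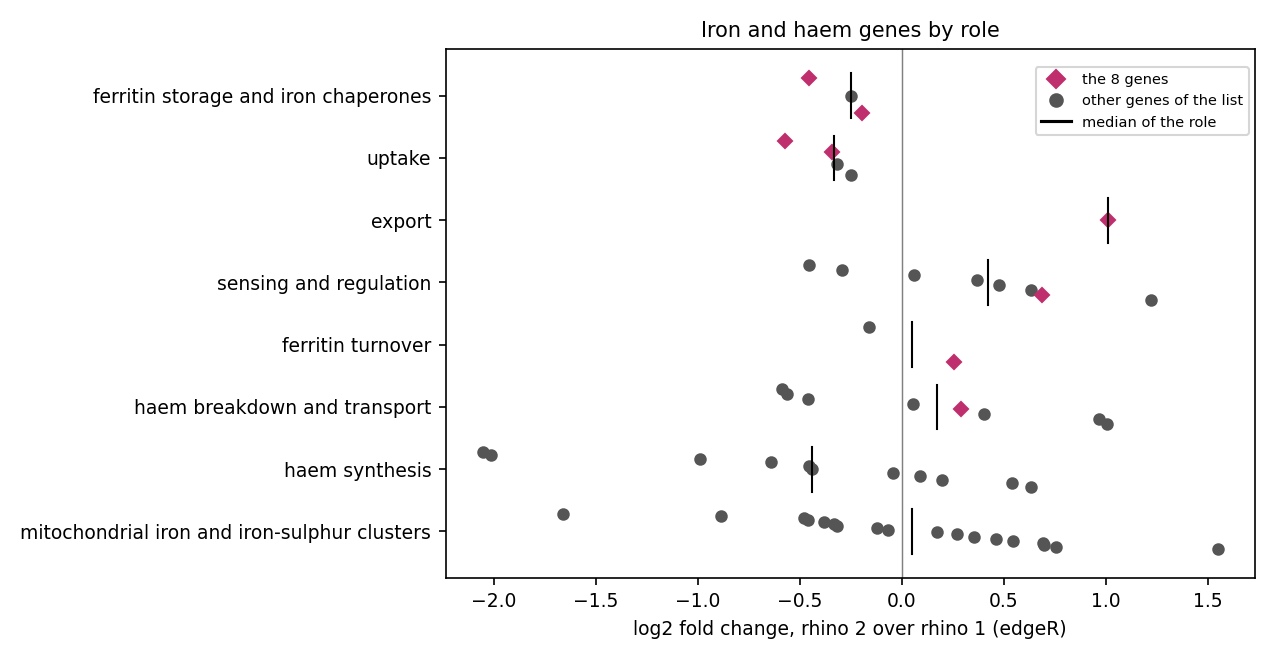
Log2 fold change, rhino 2 over rhino 1, of the tested genes of the list by role, with the 8 genes as diamonds, the others as circles and the median of each role, the 8 genes included, as a line. Values spread to both sides of 0 in most roles, from -2.06 for PPOX to 1.55 for HSC20, and 0 of the 55 genes passed the threshold by edgeR.

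Genes with the profile most like that of FRIH over the 6 libraries were DX39B, TNR3 and ANGE1. Likeness was the Euclidean distance between log2(CPM + 1) values centred on each gene's mean, over 3699 other named loci that were modelled on both strands and had a mean of at least 50 CPM. The distances were 0.24, 0.28 and 0.28, beside a median of 1.21. DX39B stood at 219, 226 and 263 CPM for rhino 1 against 180, 148 and 229 for rhino 2, with replicate 2 of rhino 2 the lowest, as in FRIH. Nearest to FRIL were MCLN1, BMP1 and S20A1, at distances of 0.59, 0.63 and 0.63, beside a median of 1.94. MCLN1, a name on 2 loci, stood at 65.8, 104 and 65.5 CPM for rhino 1 against 47.2, 21.3 and 60.3 for rhino 2, with replicate 2 the highest in rhino 1 and the lowest in rhino 2, again as in FRIL.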

How the data were processed

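Read counts per assembled transcript (5 libraries) or per assembled gene (rhino 2 replicate 1) were used as deposited, whole numbers with no normalization per the file headers and values. Trimmomatic, HISAT2 and StringTie are named in the submitters' processing notes; their versions, the genome build and the strand setting are not stated there. Names, exons and positions came from a deposited table that holds transcripts and exons only. Transcript counts were summed to 40656 assembled genes. An unnamed gene was joined to a named one (14075), or to another unnamed one (675), where their exons overlapped on opposite strands over 50% or more of the shorter exonic length (bedtools 2.31.1), leaving 25906 loci.

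CPM used the library total, and CPM per kb divided each count by the exonic length of the model that held it. The animals were compared over all loci with edgeR 4.0.16 in R 4.3.3 (TMM, filterByExpr, quasi-likelihood test, two-sided, Benjamini-Hochberg, threshold 0.05), tested on simulated data. Alternatives were other scalings, filters and strand rules, DESeq2 1.42.0, limma-voom (limma 3.58.1), the replicate number as a block and each library left out. The model length offset and the fit without the 2 smallest libraries were added after the data were seen.

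The members, lists and rules were chosen with earlier results of these data known. Beside the 8 genes, the rule named for each role of the list the genes past the threshold, the 3 with the highest mean CPM and the 2 with the largest absolute log2 fold change among those tested. It also named the second most abundant locus of each repeated member name, the 3 nearest profiles of FRIH and of FRIL, and for each marker list the 3 most abundant and any defining marker at 0. HEM3, the genes listed at 0 and the ratio of S40A1 to TFR1 were added after their values were seen. A count of 0 allows up to 3 counts of the library total, and intervals and such limits cover counting error only.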

Additional observations from a re-analysis of the deposited data

How the results depend on the processing

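The number of loci past the threshold, 47, was 88 with library totals alone, 353 with no filter on low counts, 626 by DESeq2, 762 by limma-voom, 84 with strands joined at any overlap, 128 among loci modelled on both strands and 118 with the model length offset. It was 0 for gene identifiers as deposited (239 at an unadjusted p under 0.05) and 0 without the 2 smallest libraries (1372). With 1 library left out it ran from 0 to 49, with 49 without rhino 1 replicate 1, 4 without rhino 1 replicate 2, 0 without rhino 1 replicate 3 (974 at an unadjusted p under 0.05) and 1 without each library of rhino 2. Of the 8 genes, 0 passed in the edgeR fits run, and 1, S40A1, by DESeq2 and by limma-voom. In the list of 55 tested genes, 0 passed, against 1 with no filter (PCBP2, with counts in 1 library and no opposite-strand model), 2 by DESeq2 (S40A1 and HEM4) and 1 by limma-voom (S40A1).

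Over the 18 fits of each gene, FRIH and TFR1 stayed negative, and S40A1 (0.70 to 1.14) and IREB2 (0.41 to 0.83) positive. The reversals were FRIL at 0.30 and NCOA4 at -0.0096 without the 2 smallest libraries, and HMOX1 at -0.011 and NRAM2 at 0.10 without rhino 1 replicate 1, and the cause was not tested. With 1 library left out, HMOX1 ran from -0.011 to 0.89 and NRAM2 from -1.44 to 0.10, and limma-voom gave 1.02 and -1.95. Adjusted p for S40A1 ran from 0.0035 to 0.382. As deposited, with strands not joined, the 8 genes gave no value, since 5 libraries hold no counts on their named models. Outside the deepest library, HMOX1 rested on 20 to 49 counts and NRAM2 on 0 to 53.

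The replicate number as a block gave 0 calls over all loci (893 at an unadjusted p under 0.05), 0 among the 8 genes and 0 in the list, with a log2 fold change of 0.98 for S40A1 (adjusted p = 0.382). Same-numbered libraries deviated together with correlations of 0.21, 0.13 and 0.0058, and those of replicates 1 and 2 were the highest of all pairs between the animals. Replicate 3 of rhino 1 had 0.022 with replicate 1 of rhino 2. Replicate 2 of rhino 1 had -0.18 with replicate 1 of rhino 2, and replicate 1 of rhino 1 had -0.15 with replicate 2 of rhino 2. These values do not settle whether the numbers pair the libraries, and the main fit used no block.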
